A study of Mus musculus with 2 samples.

Results

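The proteasome subunit genes described here are the 46 genes, of 32285 in the count matrices, whose symbol is Psm followed by a letter from a to g and a number, without the immunoproteasome genes Psmb8, Psmb9 and Psmb10. They comprise 8 genes of the alpha ring of the 20S core (Psma), 4 non-catalytic and 4 catalytic genes of its beta ring (Psmb), 6 ATPases and 3 further genes of the base of the 19S cap (Psmc and Psmd), 8 genes of its lid, 7 assembly chaperones, 5 genes for activators or an inhibitor of the core and Psme2b, a retrocopy of Psme2. The label constitutive holds only in part for this set, since Psme1 and Psme2 are induced by interferon and Psma8 and Psmb11 belong to proteasomes of the germline and of the thymus.

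The proteasome is the barrel-shaped protease that degrades ubiquitin-tagged proteins in the cytosol and nucleus. Its core is a stack of alpha and beta rings, in which Psmb5, Psmb6 and Psmb7 carry the active sites, and the 19S cap binds, unfolds and feeds in the substrate. Cells exposed to interferon replace these 3 subunits with Psmb8 (for Psmb5), Psmb9 (for Psmb6) and Psmb10 (for Psmb7), which gives the immunoproteasome, and its peptides are presented on MHC class I. The PA28 cap, made of Psme1 and Psme2, opens the core without ubiquitin or ATP. When proteasome activity is short, the transcription factor NRF1 (Nfe2l1) is known to raise the transcription of most subunit genes together through antioxidant response elements, and its relative NRF2 (Nfe2l2) acts on the same elements.

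Immune cells were taken from the gingiva of C57BL/6 mice and profiled by droplet single-cell RNA sequencing in a study of experimental periodontitis, with 1 library from WT mice and 1 from mice with the genotype Otud1-/-. Otud1 encodes a deubiquitinase. The number, age and sex of the animals, the treatment of each library, how the cells were isolated and which part of Otud1 was deleted are not given in the sources used here. With 1 library per genotype, no difference between genotypes has a replicate check, no test was made, and each interval below is a 95% interval for counting error only.

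After filtering, the WT library kept 11465 cells and the other library 6551, with 34801219 and 38311712 unique molecular identifiers (UMIs, each standing for 1 captured transcript). The targeted gene went against its label: Otud1 stood at 18.9 CPM in WT (counts-per-million, the UMIs of a gene scaled by all UMIs of the same cells) and 33.6 CPM in the library labelled Otud1-/-, from 658 and 1288 UMIs, a ratio of 1.78 (1.62 to 1.96). Whether the 3′ tags read lie in the deleted part is not given in the sources used here, so the tags do not check the deletion, and the second library is called the library labelled Otud1-/- throughout. The libraries also differed in depth (a median of 2133 and 4208 UMIs per kept cell), in barcodes over 15% mitochondrial UMIs (3.58% and 14.2%) and in Xist, seen in 3802 and 3 kept cells, while 2586 and 4143 kept cells had a Y-linked UMI and no Xist. A comparison over cells with a Y-linked UMI and no Xist UMI is given below as an alternative. The libraries shared 37 barcodes, 23 of them kept in both.

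Promoter windows are shown for the antioxidant response element, named above as a known control of most subunit genes. Its part in the differences between the libraries was not tested. RefSeq promoters on GRCm38.p6, which run from 250 bases before to 50 bases after the start of transcription, were at hand for 38 members. The core of the antioxidant response element was searched on both strands as TGACNNNGC, where N is any base, and 6 of the 38 held it (15.8%), against 13.99% of 27025 genes with a promoter. The share among the members was thus near that of all genes. Each window is printed 5′ to 3′ on the strand that carries the element, with the element in capitals.
Psmb5: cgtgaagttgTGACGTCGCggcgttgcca
Psmb6: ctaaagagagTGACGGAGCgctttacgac
Psmc6: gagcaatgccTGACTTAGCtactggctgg
Psmd9: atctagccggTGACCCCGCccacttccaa
Psmd12: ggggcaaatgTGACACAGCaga
Psme4: gctcttctggTGACGCTGCagccgcagcg
The windows lie at chr14:54618024-54618052 on the minus strand for Psmb5, chr11:70525338-70525366 on the plus strand for Psmb6, chr14:45329587-45329615 on the minus strand for Psmc6, chr5:123228149-123228177 on the plus strand for Psmd9, chr11:107479278-107479299 on the minus strand for Psmd12 and chr11:30771758-30771786 on the minus strand for Psme4. Those of Psmb5 and Psmb6, both catalytic subunits, begin their elements at -47 and -9 from the start site. A second motif, CCAAT, was in 13 of the 38 promoters (34.2%) and in 41.1% of all genes. Of the immunoproteasome genes, Psmb9 held CCAAT and none held TGACNNNGC. The members Psmb1, Psmb2, Psmb7, Psmc3, Psmd3, Psmd7, Psma8 and Psmg2 had no entry.

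Over all kept cells the members together gave 0.468% of the UMIs of the WT library (4679 CPM, 162828 UMIs) and 0.477% of those of the library labelled Otud1-/- (4775 CPM, 182927 UMIs). Of the 46, 39 reached a mean of 20 CPM over both libraries and 17 reached 100 CPM, and the median member stood at 74.95 CPM in WT and 81.1 CPM in the other library. Each transcript gives a single 3′ tag in this assay whatever its length, so these levels need no correction for length. The order of the members by level was almost the same in both libraries, with a Spearman rho of 0.993 across the 46 genes, given as a description.

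The most abundant member was Psme1 (chr14:55578123-55581529, mm10, plus strand), the alpha subunit of PA28, at 444 CPM in WT and 361 CPM in the library labelled Otud1-/-. Psma7 (chr2:180036374-180042433, minus strand), an alpha ring subunit, followed at 317 and 331 CPM. Psmb1 (chr17:15475021-15499751, minus strand), a beta ring subunit without an active site, was next at 278 and 300.2 CPM. Stoichiometric partners in the ring were thus not at equal transcript levels: Psma6 stood at 105 and 106 CPM and Psma5 at 116 and 130.2 CPM. The 3 catalytic genes lay within a narrower band, with Psmb6 (chr11:70525367-70527858, plus strand), the caspase-like subunit, at 136 and 155 CPM. Psmb5 (chr14:54614119-54618022, minus strand), the chymotrypsin-like subunit, stood at 122 and 138 CPM, and Psmb7 (chr2:38588036-38644087, minus strand), the trypsin-like subunit, at 89.4 and 93.4 CPM. Among the regulators of the core, Psme2, the beta subunit of PA28, stood at 218 and 213 CPM. Psme3, which forms the nuclear PA28 gamma, stood at 40.1 and 34.1 CPM, and Psme4, the PA200 activator, at 36.2 and 32.8 CPM.

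The 7 members under 20 CPM were mostly accessory genes. They were the assembly chaperones Psmg1 (12.2 and 15.5 CPM), Psmg3 (16.9 and 20.2 CPM) and Psmd5 (14.8 and 14.2 CPM), the inhibitor PI31 gene Psmf1 (19.3 and 18.2 CPM), and the 3 lowest, Psme2b, Psma8 and Psmb11. Psme2b (chr11:48945354-48946190, minus strand) stood at 7.33 and 7.13 CPM, and since it is a copy of Psme2 its reads are uncertain. Psma8, the germline alpha subunit, gave 8 UMIs in WT and 13 in the library labelled Otud1-/-, and Psmb11 (chr14:54621433-54629556, plus strand), the catalytic subunit of cortical thymic epithelium, gave 1 and 2 UMIs, fewer than 3 in either library. In the annotation, 10 members overlap another gene on their own strand and 15 one on the other strand, and their counts carry that uncertainty.

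**Figure D1:**
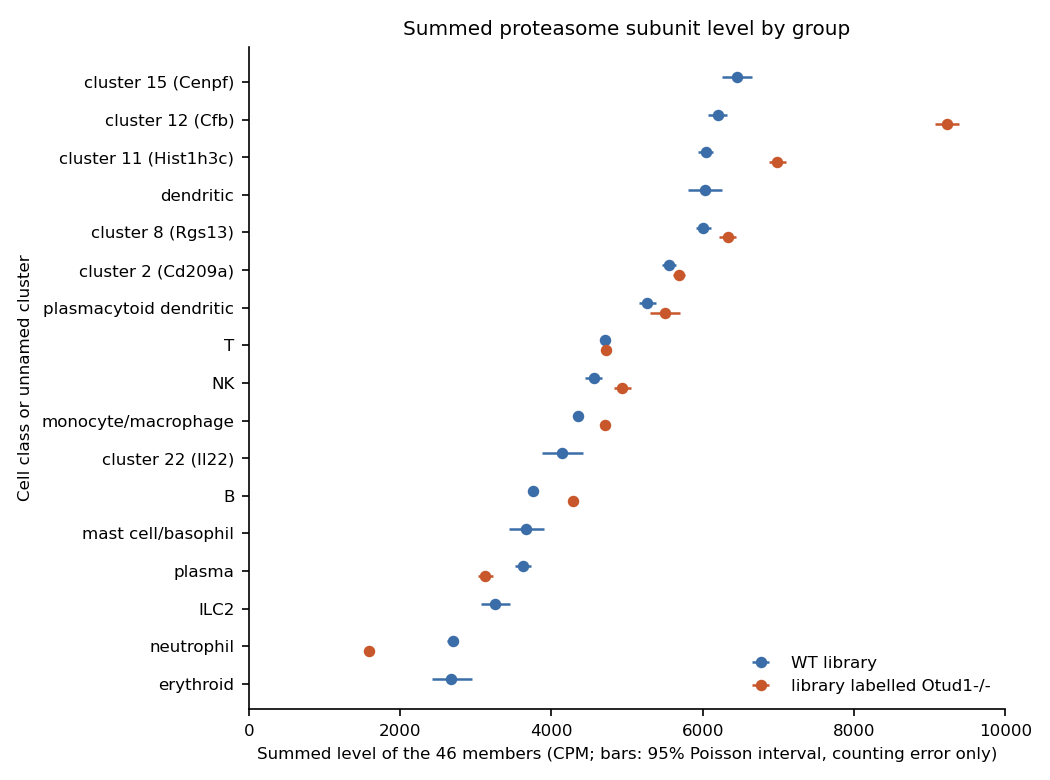
Summed level of the 46 members (CPM of the class total, horizontal axis) in each cell class or unnamed cluster with at least 50 kept cells in a library; points are the 2 libraries, bars are 95% Poisson intervals for counting error. Neutrophils stand lowest in the library labelled Otud1-/- at 1587 CPM, and cluster 12 stands highest there at 9226 CPM.

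Cells were grouped with all proteasome genes left out of the genes used for clustering. The class names are X-like labels from marker genes, and 12 classes were named; clusters whose leading genes did not settle a name keep their number and are described by leading genes. Summed over members, the proteasome genes stood lowest in WT in erythroid-like cells (2675 CPM, 2415 to 2956) and neutrophil-like cells (2692 CPM, 2618 to 2768), whose intervals overlap. In the library labelled Otud1-/- neutrophil-like cells were lowest at 1587 CPM (1544 to 1630), followed by plasma-like cells at 3124 CPM (3026 to 3225). Too few erythroid-like cells were kept there for a level. B-like cells stood at 3750.2 and 4279 CPM, monocyte/macrophage-like cells at 4357 and 4711 CPM, NK-like cells at 4559 and 4938 CPM and T-like cells at 4710.5 and 4726 CPM. Plasmacytoid dendritic-like cells were above these at 5270 and 5500 CPM, and dendritic-like cells reached 6029 CPM in WT.

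The highest sums were in unnamed clusters, several of them led by genes of dividing cells. Cluster 15, led by the mitotic genes Cenpf and Cdc20, stood at 6454 CPM in WT (6255 to 6658). Cluster 11, led by the histone genes Hist1h3c and Hist1h1b, stood at 6038 CPM in WT and 6988 CPM in the library labelled Otud1-/-. Cluster 8, led by Rgs13, a regulator of G protein signalling, stood at 6005 and 6328 CPM. Cluster 12, led by Cfb and Cxcl9, both inducible by interferon, stood at 6197 CPM (6072 to 6325) and 9226 CPM (9067 to 9386). In WT the intervals of clusters 8, 11 and 12 and of dendritic-like cells overlap one another, so their order is not resolved even by counting error.

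Member by member, the same groups marked the extremes. Over the 11 groups with a level in both libraries, 32 of the 39 members at 20 CPM or more were lowest in neutrophil-like cells in WT and 37 in the library labelled Otud1-/-. In WT, 6 of the others were lowest in plasma-like cells and 1 in B-like cells. The highest group was cluster 11 for 17 and 18 members, cluster 8 for 12 and 4, and cluster 12 for 7 and 17, and it was the same group in both libraries for 21 of the 39. The shares of all genes lowest or highest in each group are not given here, so these counts have no background beside them. The median member spanned a factor of 2.57 between its lowest and highest group in WT and 5.82 in the other library.

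**Figure D2:**
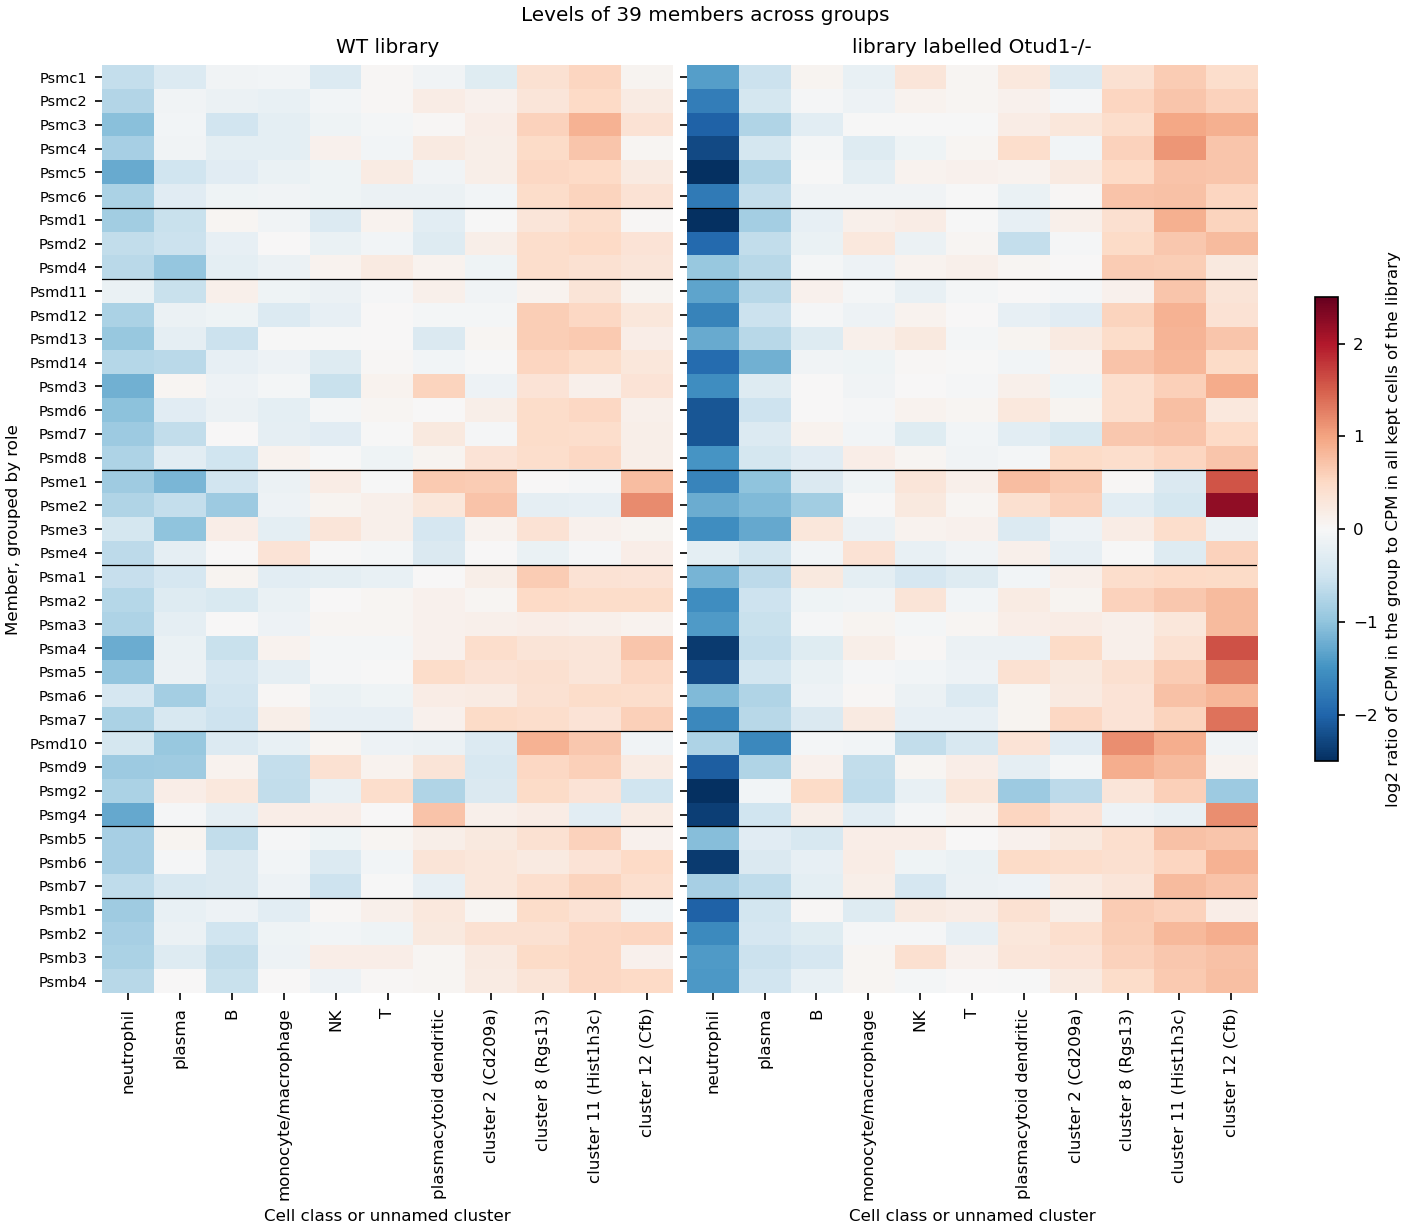
Level of each member in each group of cells relative to all kept cells of the same library (colour, log2 of the CPM ratio), for the 39 members at 20 CPM or more in rows by role and the groups in columns, with 1 panel per library. Against all other kept cells, neutrophils are lower for 39 of 39 members in both libraries, and clusters 8, 11 and 12 are higher in both for 36, 35 and 35 members. The same shares over all genes are not given.

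Some members departed from the common order. For each group, the ratio of a member to all other kept cells of the same library was taken, and among the 39 members at 20 CPM or more the one named is that whose smaller ratio of the 2 libraries was highest. It need not be the highest in either library alone. In T-like cells it was Psmg2, an assembly chaperone, at 1.45 in WT and 1.25 in the library labelled Otud1-/-, and the same gene was named in B-like cells, at 1.26 and 1.68, and in plasma-like cells, at 1.13 and 0.95. In monocyte/macrophage-like cells it was Psme4, at 1.35 and 1.35. In cluster 8 it was Psmd10, the chaperone gankyrin, at 1.94 and 2.39. In cluster 11 it was Psmc3, a 19S ATPase, at 1.96 and 2.07, although another ATPase, Psmc4, stood higher in the library labelled Otud1-/-, at 1.69 and 2.31. Psme1 was named in NK-like cells (1.14 and 1.25), where the beta ring gene Psmb3 stood higher in the library labelled Otud1-/- (1.13 and 1.33), in plasmacytoid dendritic-like cells (1.61 and 1.73) and in cluster 2, led by Cd209a and Avpi1 (1.63 and 1.65). In cluster 12 it was Psme2, at 2.39 and 5.41. In neutrophil-like cells it was Psme4, at 0.62 and 0.84 of the level elsewhere, while the chaperone Psmg4, whose larger ratio of the 2 libraries was the smallest, stood at 0.40 and 0.18.

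The PA28 pair spanned a wider range across groups than the rest of the complex. In WT the other members together ran from 2312 to 5855 CPM and PA28 from 346 to 1817 CPM, and in the library labelled Otud1-/- the ranges were 1371 to 7138 CPM and 205 to 2068 CPM. Psme1 and Psme2 together stood at 1817 CPM (1695 to 1946) in WT dendritic-like cells, where they made up 30.1% of the UMIs of all members. In cluster 12 they stood at 1254 and 2068 CPM (20.2% and 22.4%), in cluster 2 at 1049 and 882 CPM (18.9% and 15.5%) and in plasmacytoid dendritic-like cells at 965 and 899 CPM (18.3% and 16.3%). Dendritic cells are professional antigen presenting cells. At the other end, plasma-like cells had 346 and 279 CPM (9.55% and 8.93%), and cluster 11 in the library labelled Otud1-/- had 437 CPM (6.26%), although its summed level was the second highest there. The ratio of 20S core to 19S cap transcripts moved less, from 1.57 in WT mast cell/basophil-like cells to 2.37 in cluster 12 of the library labelled Otud1-/-.

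Across groups, the summed alpha ring and the summed 19S ATPases followed each other, with a Spearman rho of 0.885 over 17 groups in WT and 0.900 over 11 groups in the other library. PA28 followed the ATPases less closely, at 0.605 and 0.573, and the immunoproteasome genes at 0.757 and 0.773. The summed constitutive catalytic genes followed the immunoproteasome genes more closely than PA28 did, at 0.873 in WT and 0.936 in the other library. These are descriptions over groups that share a library and its scaling.

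**Figure D3:**
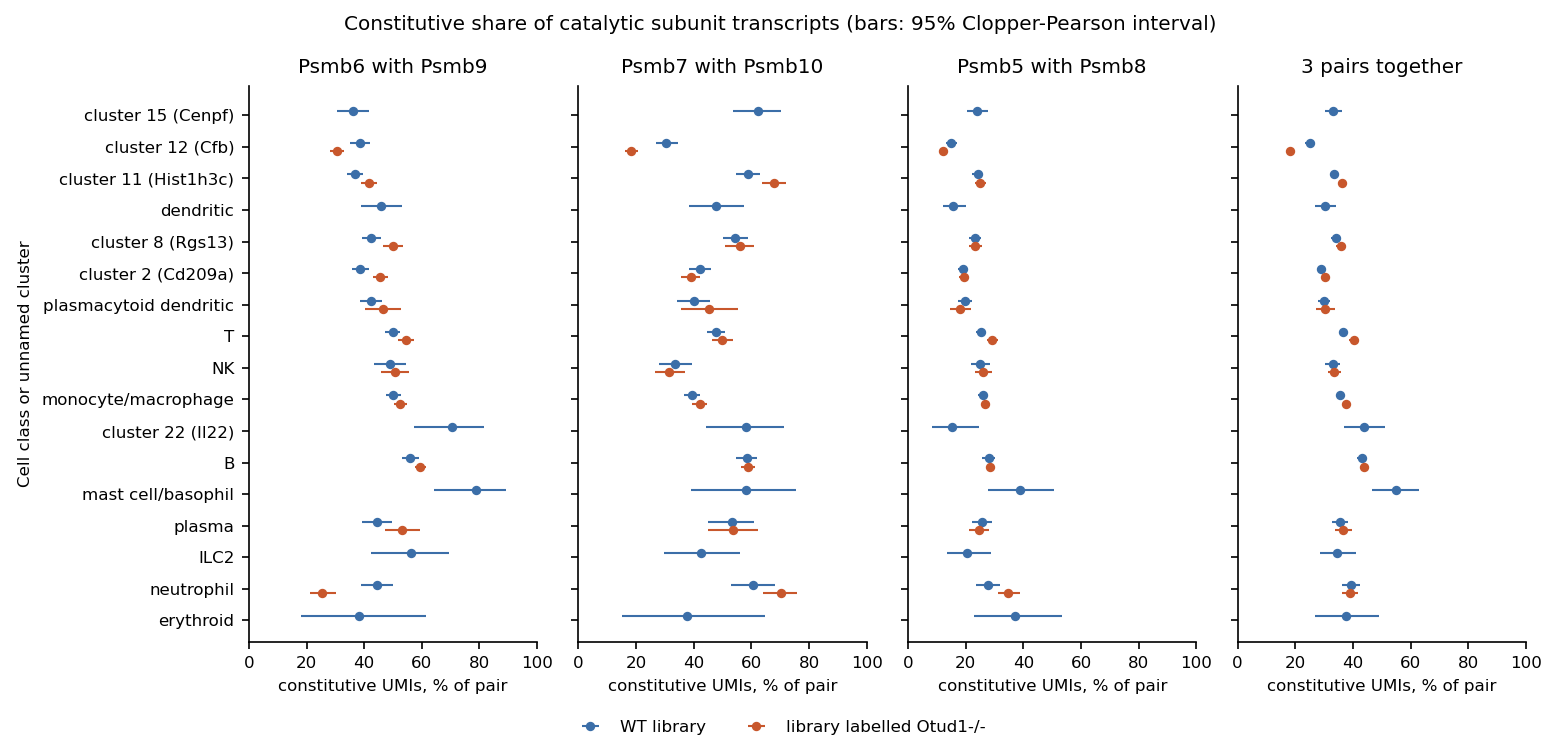
Share of the UMIs of the 3 catalytic pairs that came from the constitutive gene (percent, horizontal axis) by group and library, for each pair and for the 3 together, with exact 95% binomial intervals for counting error. For the 3 pairs together the share runs from 18.2% in cluster 12 of the library labelled Otud1-/- to 54.9% in mast cell/basophil-like cells of WT.

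The share of constitutive catalytic transcripts, Psmb5, Psmb6 and Psmb7 against their immunoproteasome counterparts, does not depend on how the libraries are scaled. Over all kept cells it was 34.3% in WT (33.8% to 34.8%) and 35.1% in the library labelled Otud1-/- (34.6% to 35.5%), so that transcripts of the immunoproteasome were in the majority. WT mast cell/basophil-like cells were the single group above an even split, at 54.9% from 84 constitutive and 69 immunoproteasome UMIs, with an interval of 46.7% to 62.9% that includes an even split. B-like cells followed among the classes measured in both libraries, at 43.0% and 43.8%, and neutrophil-like cells stood at 39.3% and 38.9%. T-like cells stood at 36.4% and 40.2%, monocyte/macrophage-like cells at 35.6% and 37.4%, plasma-like cells at 35.5% and 36.6% and NK-like cells at 32.9% and 33.5%. Plasmacytoid dendritic-like cells (29.8% and 30.4%) and cluster 2 (28.9% and 30.4%) were lower, and cluster 12 was lowest at 25.02% and 18.2%. The T-like class differed in make-up: cluster 5, led by Dapl1 and Tdrp, held 526 of 1772 WT cells and 460 of 811 of the other library. Cluster 5 had a share of 41.9% and 45.9% and a summed level of 3742 and 3879 CPM. The part of this make-up in the T-like values was not tested.

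The pairs did not sit at 1 value. In WT B-like cells Psmb6 gave 56.0% of its pair with Psmb9 and Psmb7 gave 58.4% of its pair with Psmb10, while Psmb5 gave 27.9% of its pair with Psmb8. In WT NK-like cells the same shares were 48.9%, 33.6% and 25%. The low share of Psmb5 came with the high level of Psmb8, which stood at 204 CPM in WT B-like cells and 341 CPM in WT NK-like cells.

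Members were then compared between the libraries class by class, for the 6 classes and 4 unnamed clusters with at least 100 kept cells in each. A member counts as higher or lower when its CPM differs at least 1.5-fold, among genes with a mean of at least 20 CPM, and differences are given as log2 of the library labelled Otud1-/- over WT. Outside neutrophil-like cells and cluster 12 nearly all members stayed within 1.5-fold. In B-like cells 0 of 41 members were higher and 0 lower, against 0.819% and 1.79% of all genes. In T-like cells it was 0 and 0 of 40, against 0.624% and 4.29%, and in monocyte/macrophage-like cells 0 and 0 of 38, against 5.38% and 3.98%. Clusters 2 and 8 also had 0 of 38 and 0 of 42 members called, against 2.32% higher and 7.34% lower of all genes in cluster 2 and 2.52% and 4.12% in cluster 8.

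In NK-like cells the call was 1 of 40 members higher, against 4.79% of all genes, and 0 lower, against 7.26%. It was the lid subunit Psmd3, at 24.8 CPM in WT and 38.1 CPM in the library labelled Otud1-/-, from 36 and 57 UMIs, with an interval of the log2 difference of -0.01 to 1.26. At a limit of 5% mitochondrial UMIs 0 of 40 members were higher, against 4.87% of all genes, and 1 lower, against 7.83%. With a finer clustering 6 of 39 members were higher in NK-like cells, against 8.8% of all genes, with predicted doublets kept 9 of 39, against 9.49%, and over cells with a Y-linked and no Xist UMI 13 of 39, against 11.6%. This count thus changed with the cells taken, as did the share of all genes. The NK-like class had 673 cells in WT and 316 in the library labelled Otud1-/-. With the finer clustering it had 128 and 172, and with doublets kept 105 and 167. An unnamed cluster of the finer clustering, led by Gzma and Spry2, had 426 and 21 cells, and its overlap with the NK-like class is not given here. The part of this make-up in the NK-like values was not tested. In plasma-like cells 1 of 37 was lower, against 18.4% of all genes, and 0 higher, against 4.11%. It was the ATPase Psmc3, at 95.6 and 52.9 CPM (log2 -0.85, -1.31 to -0.41). The numbers lower were 6 of 37 with doublets kept, against 27.3% of all genes, 3 of 37 at a limit of 5% mitochondrial UMIs, against 20.9%, and 5 of 35 over cells with a Y-linked and no Xist UMI, against 28.2%.

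The sums over members followed. The summed log2 difference was 0.19 in B-like cells (0.17 to 0.21), 0.12 in NK-like cells (0.07 to 0.16), 0.11 in monocyte/macrophage-like cells (0.09 to 0.14), 0.0048 in T-like cells (-0.02 to 0.03) and -0.21 in plasma-like cells (-0.28 to -0.15). In plasma-like cells the median over all genes was also -0.22. The T-like class differed in make-up between the libraries, and the NK-like class changed in size with the clustering, as given above. The highest members by difference in B-like cells were Psmg3 (18.4 and 27.2 CPM, log2 0.55), Psmb4 (125 and 172 CPM, 0.46) and Psma5 (86.1 and 116 CPM, 0.43), and the lowest were Psmd1 (50.9 and 41.5 CPM, -0.29), Psme4 (-0.21) and Psme1 (-0.18). In T-like cells the differences ran only from -0.25 (Psmc1, 57.0 and 47.8 CPM), with Psme3 at -0.24 and Psma6 at -0.21, to 0.25 (Psmc4, 70.5 and 83.7 CPM), with Psmf1 at 0.23 and Psmd8 at 0.21.

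In monocyte/macrophage-like cells the highest were the catalytic subunits Psmb6 (130.2 and 176 CPM, 0.43) and Psmb5 (119 and 155 CPM, 0.38), then Psma5 (0.35), and the lowest were Psmg4 (63.4 and 47.0 CPM, -0.43), Psmc1 (-0.39) and Psme1 (-0.26). In NK-like cells Psmd1 (0.48) and Psmb5 (0.43) followed Psmd3 at the top, and Psmd10 (-0.55), Psmd9 (-0.50) and Psme3 (-0.45) were lowest. In plasma-like cells Psmd7 (0.45), Psmd4 (0.24) and Psma6 (0.12) were highest, and Psme2 (145 and 98.4 CPM, -0.55) and Psmc1 (-0.47) were lowest after Psmc3. In cluster 2 Psmd8 (0.34), Psmb6 (0.33) and Psmd13 (0.24) stood at the top and Psme3 (-0.44), Psme4 (-0.36) and Psmd2 (-0.34) at the bottom. In cluster 8 Psmd7 (0.40), Psmd10 (0.39) and Psmb6 (0.37) stood at the top and Psme3 (-0.41), Psmg4 (-0.29) and Psmc3 (-0.29) at the bottom.

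**Figure D4:**
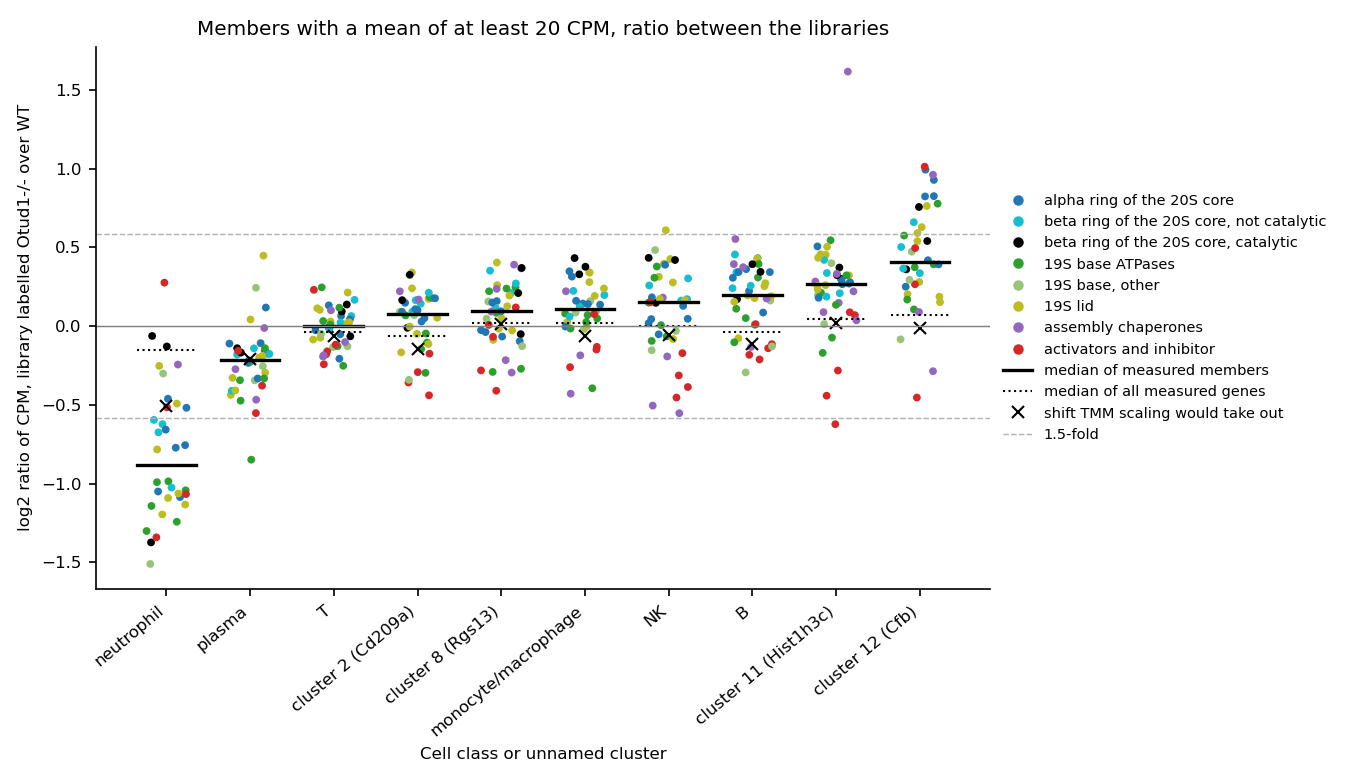
Log2 of the CPM in the library labelled Otud1-/- over WT (vertical axis) for each member at a mean of 20 CPM or more, by class or unnamed cluster; each point is 1 member coloured by role, the bar is their median, the dotted line the median of all measured genes, the cross the shift that trimmed-mean scaling takes out, and dashed lines mark 1.5-fold. Neutrophils hold 24 members past the lower line and cluster 12 holds 12 past the upper line.

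Neutrophil-like cells stood apart. In 851 and 891 cells, 24 of 34 members measured were lower in the library labelled Otud1-/-, against 30.6% of all genes, and 0 were higher, against 15.5%. The median member differed by -0.88 in log2 and the median gene by -0.15, and the sum over members by -0.76 (-0.82 to -0.71). The calls depended on scaling: with trimmed-mean factors 8 of 34 members were lower, against 16.6% of all genes, 1 was higher, against 38.1%, and the sum differed by -0.25. With median-of-ratios factors 5 were lower, against 14.5%, 1 was higher, against 43.5%, and the sum differed by -0.15. Both sets of factors were taken over all genes with a UMI in both libraries, without the limit of 20 CPM. They shift members and all other genes alike, so the gap between the median member and the median gene did not change. These factors move the median of all genes by 0.51 and 0.61 in neutrophil-like cells, by 0.21 and 0.16 in plasma-like cells, by 0.11 and 0.11 in B-like cells and by 0.14 and 0.19 in cluster 2, and by under 0.1 in the other groups compared.

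By role, all 6 ATPases of the 19S base (Psmc1 to Psmc6) were lower on the CPM scale, between -1.30 and -0.99, and together they stood at 250.4 CPM in WT and 115 CPM in the other library. In the rest of the base Psmd2, a scaffold that receives ubiquitin shuttles, had the largest difference of any member measured, at 47.8 and 16.5 CPM (-1.51, -2.05 to -1.03). In the lid 5 of 7 were lower, with Psmd11 at 76.1 and 32.9 CPM (-1.20). In the alpha ring 5 of 7 were lower, and its most abundant gene, Psma7, stood at 183 and 108 CPM (-0.76). All 4 non-catalytic beta genes were lower, and Psmb1 stood at 149 and 73.2 CPM (-1.02). These counts by role are on the CPM scale, where 30.6% of all genes were lower. The largest difference was -1.09 in the alpha ring and -1.02 among the non-catalytic beta genes. Trimmed-mean factors move both by 0.51. With them no alpha ring gene and no non-catalytic beta gene is called lower.

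The catalytic genes split. Psmb6 stood at 76.6 and 29.3 CPM (-1.37, -1.78 to -1.004), while Psmb5 stood at 68.5 and 65.5 CPM (-0.06, -0.39 to 0.27) and Psmb7 at 57.0 and 52.1 CPM (-0.13, -0.49 to 0.23). Under trimmed-mean factors Psmb5 and Psmb7 turn to 0.45 and 0.38 and Psmb6 stays at -0.86. The share of Psmb6 in its pair with Psmb9 was accordingly 44.3% (38.8% to 49.99%) in WT and 25.4% (21.1% to 30.1%) in the library labelled Otud1-/-. The share of Psmb7 in its pair was 60.7% and 70.1%, and that of Psmb5 27.6% and 34.8%, so the summed share hardly differed.

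Among the activators, Psme1 stood at 241 and 115 CPM (-1.07) and Psme3 at 29.3 and 11.3 CPM (-1.34). Psme2 stood at 129 and 89.9 CPM (-0.52), within 1.5-fold. Psme4 was the single member measured above 0 on the CPM scale, at 22.8 and 27.7 CPM (0.28, -0.26 to 0.85). Psmf1 gave 20 and 11 UMIs and was under the level needed for a call.

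**Figure D5:**
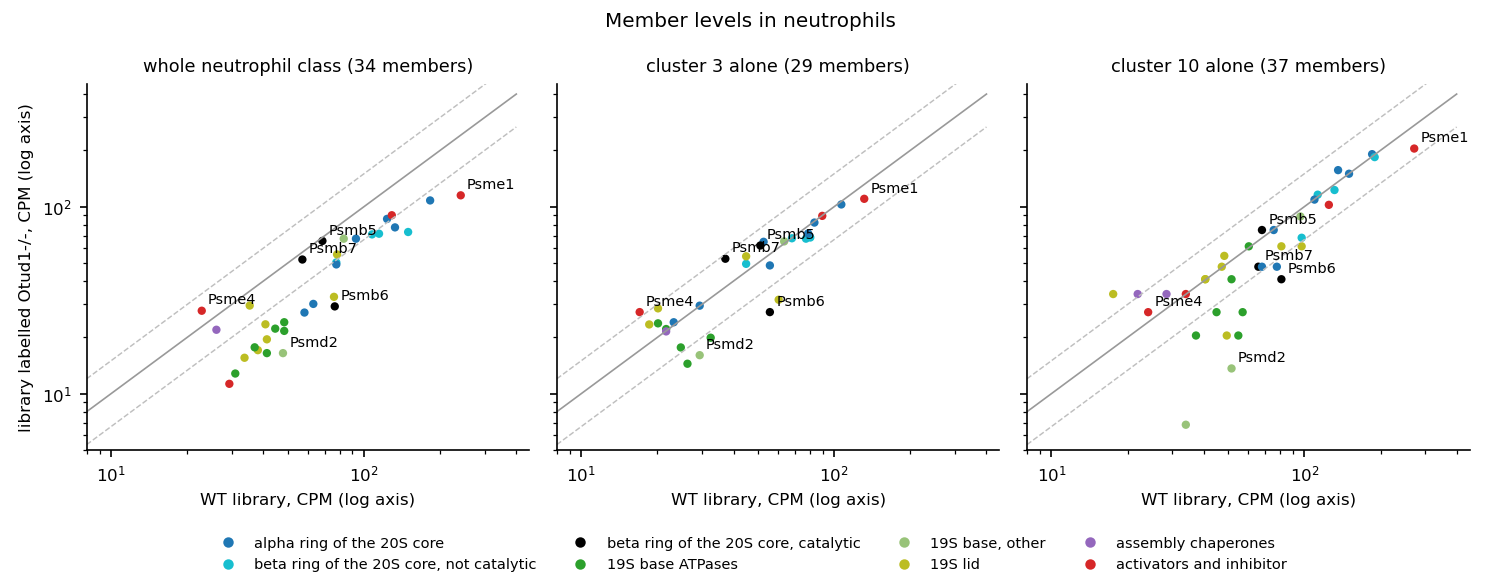
CPM of each measured member in neutrophil-like cells of WT (horizontal log axis) and of the library labelled Otud1-/- (vertical log axis), in the whole class (34 members), cluster 3 (29) and cluster 10 (37); each point is 1 member coloured by role, the solid line marks equal levels and the dashed lines 1.5-fold. Most points of the whole class lie under the lower dashed line, and within cluster 3 most lie near the solid line, with Psmb6 and Psmd2 under the lower dashed line in each panel. In cluster 10 their levels in the library labelled Otud1-/- rest on 6 and 2 UMIs.

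The 2 libraries held different neutrophil-like cells. Of the WT cells, 559 were in cluster 10, 199 in cluster 3 and 93 in cluster 23, and of the cells of the other library 794 were in cluster 3, 96 in cluster 10 and 1 in cluster 23. Cluster 3 had a low summed level in both libraries, at 1614 and 1516 CPM, and cluster 10 a higher one, at 3054 and 2651 CPM. Within cluster 3 the sum differed by -0.09 (-0.19 to 0.01), with 5 of 29 members lower, against 11.9% of all genes, and 1 higher, against 6.77%. The 5 were Psmb6 (55.7 and 27.3 CPM, -1.02), Psmd11 (60.3 and 31.8 CPM, -0.91), Psmd2 (29.4 and 16.1 CPM, -0.85), Psmc4 (-0.84) and Psmc3 (-0.69), and the higher one was Psme4 (17.01 and 27.3 CPM, 0.67). Within cluster 10 the sum differed by -0.20 (-0.36 to -0.05), with 10 of 37 lower, against 16.4%, and 2 higher, against 22.8%. Psmb6 was again among the lower ones there, at 81.1 and 40.9 CPM, the latter from 6 UMIs. Of the 24 members lower in the class, 5 of the 19 measured in cluster 3 were lower within it, and 8 of the 24 measured in cluster 10.

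Other measures moved with the neutrophil result. The 18 neutrophil markers summed to 79880 CPM in WT and 125278 CPM in the library labelled Otud1-/-, with none at 0. The 15 B cell markers summed to 1880 and 492 CPM, 60.1% and 14.1% of their level in the whole library, and the 20 T cell markers to 633 and 96.3 CPM, with Foxp3 at 0 in the library labelled Otud1-/-. Within cluster 3 the B cell markers stood at 532 and 361 CPM. The median cell gave 18.2% and 5.85% of its UMIs to ribosomal protein genes in cluster 10 and 4.55% and 4.01% in cluster 3. Median depth was 1598 and 2649 UMIs per neutrophil-like cell, and the mean number of member UMIs per cell was 5.82 and 5.84. In every other class compared that mean was higher in the library labelled Otud1-/-, for example 14.8 and 25.8 in T-like cells. Because the libraries differ in depth, near-equal UMI counts do not show equal member transcripts per cell. The part of these differences in the result was not tested.

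Other genes of the pathway did not all follow the members in neutrophil-like cells. The 3 immunoproteasome genes stood at 312 and 231 CPM together, 1 of 3 lower (Psmb10, 36.9 and 22.3 CPM, -0.72). Of 5 measured shuttle and unfoldase genes 3 were lower, among them Vcp, the p97 unfoldase, at 97.8 and 34.5 CPM (-1.49). Sem1, a small lid component whose symbol falls outside the family, stood at 628 and 729 CPM (0.21). Among 9 regulators of proteasome genes, Nfe2l1 was lower at 27.7 and 16.8 CPM (-0.71), and Nfe2l2 at 661 and 1057 CPM (0.68), Bach1 (0.78), Mafk (0.75) and Stat3 (0.66) were higher. These lists were read against the same shares of all genes as the members. The differences are on the CPM scale, and trimmed-mean factors move them by 0.51. With these factors Nfe2l1 and Psmb10 lie within 1.5-fold, Sem1 lies above that limit, and Vcp stays lower and Nfe2l2 higher. The levels of these genes within single neutrophil clusters are not given here.

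Cluster 12 went the other way. In its 421 WT cells and 113 cells of the library labelled Otud1-/-, 12 of 38 members were higher in the latter, against 14.5% of all genes, and 0 were lower, against 10.9%. The median member differed by 0.41 and the median gene by 0.07, and the sum by 0.57 (0.54 to 0.61). Psme2 stood at 491 and 992 CPM (1.01, 0.88 to 1.14). The alpha ring genes Psma4 (244 and 487 CPM, 0.99), Psma5 (165 and 315 CPM, 0.93), Psma3 (0.83) and Psma7 (478 and 847 CPM, 0.82) were higher, as was the chaperone Psmg4 (65.0 and 127 CPM, 0.96). The other 6 were Psmb5 (132 and 223 CPM, 0.76), Psmb3, Psmc4, Psmd3, Psmd8 and Psmd13. Psme3 (-0.45), Psmd9 (-0.29) and Psmd4 (-0.08) were the 3 members below 0.

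The immunoproteasome genes of cluster 12 differed by more than the members. Psmb8 stood at 752 and 1626 CPM (1.11), Psmb9 at 309 and 642 CPM (1.05) and Psmb10 at 273 and 688 CPM (1.33). The constitutive share was 38.5% and 30.5% for Psmb6, 30.5% and 18.3% for Psmb7 and 14.9% and 12.1% for Psmb5. Pomp, the maturation chaperone that favours the immunoproteasome, stood at 386 and 776 CPM (1.01), and Irf1, the interferon-induced activator of Psmb9, at 199 and 304 CPM (0.61). The make-up of the cluster also differed: its 20 monocyte/macrophage markers summed to 9379 and 7849 CPM, its 20 dendritic markers to 2570 and 1235 CPM and its 18 neutrophil markers to 2442 and 5318 CPM, with Ly6g and Stfa1 at 0 in WT and Camp and Ltf at 0 in the other library. At a finer clustering (Leiden resolution 2) its cells fell mostly into a part with 412 WT cells and 18 of the other library, with summed levels of 6069 and 6941 CPM, and a part with 7 and 94 cells, at 8570.5 and 9541 CPM, so the libraries held largely different cells of the cluster. Median depth was 2286 and 11024 UMIs per cell. The part of these differences in the result was not tested.

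In cluster 11 the members were mostly slightly above WT, 38 of 43 with a positive difference, and the sum differed by 0.21 (0.18 to 0.24). The median member differed by 0.27 and the median gene by 0.04. The share of all genes with a positive difference is not given. There was 1 member called in each direction, against 4.28% of all genes higher and 5.05% lower. Psmg1, the assembly chaperone PAC1, stood at 10.5 and 33.1 CPM (1.62, 1.005 to 2.36) from 27 and 71 UMIs. Psme1 stood at 434 and 281 CPM (-0.62, -0.77 to -0.48), and Psme2 at 190 and 156 CPM (-0.28). The share of PA28 among all members was 10.3% and 6.26%. The finer clustering divided this cluster as well, into a part with 453 WT cells and 29 of the other library, at 5951 and 7799 CPM summed over members, and a part with 71 and 97 cells, at 6157 and 6852 CPM. The part of this make-up in the result was not tested.

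Psme1 was the single member, of 32 measured in all 6 classes, below WT in each of them, and no member was above WT in each. The shares of all genes below or above WT in all 6 classes are not given here. This count thus has no background beside it. On the CPM scale Psme3 and Psmd9 were measured in 5 classes and were below WT in those 5, by -1.34 to -0.11 and by -0.50 to -0.01. The smallest differences were -0.1139 for Psme3 in B-like cells and -0.0115 for Psmd9 in plasma-like cells. Trimmed-mean factors move these classes by 0.1148 and 0.2102, so neither stayed below WT with them. Without the top cell of each library Psmd9 stood at 0.01 in plasma-like cells. Psme1 stood in WT and the library labelled Otud1-/- at 319 and 282 CPM in B-like, 441 and 394 CPM in T-like and 504 and 447 CPM in NK-like cells. It stood at 403 and 337 CPM in monocyte/macrophage-like and 201 and 181 CPM in plasma-like cells. Outside neutrophil-like cells these were differences of -0.26 to -0.16, all within 1.5-fold, and in plasma-like cells the sign turned to 0.05 with trimmed-mean factors and 0.0021 with median-of-ratios factors. Its partner Psme2 differed by 0.01 in B-like, -0.12 in T-like, 0.15 in NK-like and 0.08 in monocyte/macrophage-like cells. Psme1 was also below WT in clusters 2, 8 and 11 and above it in cluster 12 (763 and 1076 CPM).

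Without the cell that held most UMIs of a member in each library, the 391 member differences over the 10 groups moved by at most 0.22 in log2. A called difference is larger than that move, so its sign could not change, and none did. The called difference left nearest to the 1.5-fold limit was that of Psmb3 in neutrophil-like cells. It stood at -0.58503, barely past the limit. The largest share of a member's UMIs from 1 cell was 21.9%, for Psmd1 in plasma-like cells of the library labelled Otud1-/-.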

How the data were processed

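Libraries were made with the 10x 3′ kit v3.1, per the labels' protocols. The submitters' processing notes name Cell Ranger 5.0.0, Seurat 3.2.3 and mm10, while Cell Ranger 6.0.1 stands in the file headers. The deposited values are raw UMI counts per gene and barcode. The members and gene lists were chosen with earlier results of these data known.

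Barcodes under 200 genes or over 15% mitochondrial UMIs were dropped. Automatic doublet calling marked 1 and 4 cells and was taken as failed, so the highest-scoring 1304 (10.2%) and 385 (5.55%) were removed at 0.8% per 1000 barcodes. Counts were scaled to 10000 per cell, and 2000 variable genes without proteasome genes, 30 components, 20 neighbours and Leiden resolution 1 (leidenalg 0.10.2, scikit-learn 1.9.0, Python 3.11.15) gave 27 clusters. A cluster was named from at least 3 markers of a class among its 50 leading genes, a rule set with these data known.

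UMIs were summed per class and library. CPM carry exact Poisson intervals, ratios exact conditional binomial intervals and shares Clopper-Pearson intervals, at 95% and for counting error only. A prior of 0.5 CPM was added for log2 ratios. With 1 library per genotype no test was made. The scripts were tested on simulated data. Named genes were the catalytic genes, activators, inhibitor and tissue-restricted members, the 3 highest and 3 lowest by level, per class the 3 highest and lowest by ratio, and per group the member whose smaller ratio to other cells over both libraries was highest and the one whose larger ratio was smallest; those named beyond this rule, among them other genes of the pathway, were chosen after their values were seen. Alternatives were other scalings, priors, level limits, filters and clusterings, and cells with a Y-linked and no Xist UMI. Single clusters, unnamed clusters and their parts at Leiden resolution 2, and leaving out the top cell were chosen after seeing the data. Gene positions are those of the mm10 annotation and promoters those of RefSeq on GRCm38.p6.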

Additional observations from a re-analysis of the deposited data

Results flagged for a closer look

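Summed over all members, the difference between libraries pointed in opposite directions in different classes, with counting intervals on opposite sides of 0. The log2 difference (library labelled Otud1-/- over WT) in neutrophil-like cells minus that in B-like cells was -0.95, and it was -0.88 against NK-like cells and -0.88 against monocyte/macrophage-like cells. For plasma-like cells the same subtraction gave -0.40 against B-like cells, -0.33 against NK-like cells and -0.33 against monocyte/macrophage-like cells. In plasma-like cells the median over all genes also differed by -0.22, and with trimmed-mean factors the sum over members differed by -0.0033. With 1 library per genotype these differences between classes were not tested. Within neutrophil cluster 3 the sum differed by -0.09 between the libraries.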

How the results depend on the processing

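No paired analysis was possible because each genotype has 1 library and the result comes from no test. The limits are the single library per genotype, the deeper cells of the library labelled Otud1-/-, neutrophil clusters filled unevenly between the libraries, and members under 20 CPM that give no call. With trimmed-mean factors the summed log2 difference became -0.25 in neutrophil-like, 0.31 in B-like, 0.068 in T-like, 0.17 in NK-like, 0.18 in monocyte/macrophage-like and -0.0033 in plasma-like cells and 0.18 in cluster 2. With median-of-ratios factors it became -0.15 in neutrophil-like, 0.30 in B-like, 0.077 in T-like, 0.15 in monocyte/macrophage-like and -0.054 in plasma-like cells and 0.22 in cluster 2. With predicted doublets kept it was -0.55 in neutrophil-like, -0.028 in T-like, 0.23 in NK-like and -0.28 in plasma-like cells. At 5% mitochondrial UMIs it was 0.0014 in cluster 2. At Leiden resolution 2 it was 0.25 in NK-like and -0.027 in monocyte/macrophage-like cells. Over cells with a Y-linked and no Xist UMI it was -0.61 in neutrophil-like, 0.21 in T-like and 0.33 in NK-like cells, 0.22 in cluster 2 and 0.50 in cluster 12. Within single clusters it was -0.091 in cluster 3 and -0.20 in cluster 10 of the neutrophil-like cells, 0.052, -0.028 and 0.17 in clusters 5, 6 and 13 of the T-like cells, and -0.00088, 0.20 and 0.047 in clusters 1, 7 and 21 of the monocyte/macrophage-like cells. The difference in the constitutive catalytic share, in percentage points, was 7.60 in neutrophil-like and 0.93 in T-like cells over cells with a Y-linked and no Xist UMI, and 5.203 in monocyte/macrophage-like cells at Leiden resolution 2. Within clusters it was -7.06 in cluster 10, 1.32 in cluster 13, 4.96 in cluster 7 and 5.88 in cluster 21, and it turned sign to -0.56 in cluster 6 and -1.67 in cluster 1. Summed over the 6 classes, the number of members higher was 1, and it was 4 under either scaling, 0 with a prior of 5 CPM or a limit of 50 CPM, 3 over every member with a UMI, 2 at 5% mitochondrial UMIs, 9 with doublets kept, 6 at Leiden resolution 2 and 16 over cells with a Y-linked and no Xist UMI. The number lower was 25, and it was 9 with trimmed-mean factors, 6 with median-of-ratios factors and 11 at the limit of 50 CPM. A member counts once per class in these sums, and 24 of the 25 lower were in neutrophil-like cells. The share of all genes called moved as well. In neutrophil-like cells 30.6% were lower, 16.6% with trimmed-mean and 14.5% with median-of-ratios factors. In NK-like cells 4.79% were higher, and 11.6% over cells with a Y-linked and no Xist UMI. Shares for the prior of 5 CPM, the limit of 50 CPM and every member with a UMI are not given. As a mean over cells of the share of UMIs, the summed level was 1501 CPM in neutrophil-like, 4148 in B-like, 4365 in T-like, 4717 in NK-like, 4585 in monocyte/macrophage-like and 3268 in plasma-like cells of the library labelled Otud1-/-, and 4444, 4266 and 3826 CPM in NK-like, monocyte/macrophage-like and plasma-like cells of WT. At 5% mitochondrial UMIs it was 3896 and 4495 CPM in B-like and 4811 and 4862 CPM in T-like cells of WT and the other library, and 4455 CPM in WT monocyte/macrophage-like cells. With doublets kept it was 2797 and 1904 CPM in neutrophil-like cells, 4638 CPM in T-like cells of the library labelled Otud1-/-, and 4108 and 3792 CPM in NK-like and plasma-like cells of WT. For single named members, 223 values stayed within the counting error of the reported ones and 29 moved beyond it, and none of either changed the sign of a called difference. The unnamed clusters were not run with doublets kept, and at Leiden resolution 2 levels are given for parts of clusters 11 and 12 and no difference was computed. The cause of these changes was not tested.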
